A study of Mus musculus with 66 samples.

Results

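The 27 BXD strains fell into a high class of 17 strains and a low class of 10 strains when they were grouped by the prefrontal level of Glo1. BXD strains are recombinant inbred mice, each fixed for its own mosaic of C57BL/6J and DBA/2J chromosomes. The classes held 34 and 20 arrays, all 54 BXD arrays of the 66 in the series. Each strain was represented by the mean of its saline array and its ethanol array on the brightest of the 4 Glo1 probe sets over all 66 arrays, and a strain was placed in the high class when that mean exceeded 10.1 on the log2 scale.

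All animals were male mice 10 to 12 weeks old, and the tissue was medial prefrontal cortex. Each received an intraperitoneal injection of saline or of ethanol at 1.8 g/kg, underwent restraint lasting 15 minutes and a light-dark box test lasting 10 minutes, and was killed 4 hours after injection. The saline groups therefore also carried injection, restraint and behavioural testing. Each array held RNA of 4 to 5 pooled animals. A BXD strain had 1 saline and 1 ethanol array, whereas C57BL/6J and DBA/2J, the progenitors of the panel, had 3 arrays per treatment each. The labels name no transgene or other engineered allele. The unit of replication was the strain for the BXD classes and the array for the progenitors.

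Glo1 encodes glyoxalase 1, which uses glutathione to convert methylglyoxal, a reactive by-product of glycolysis, to a thioester that Hagh, glyoxalase 2, then hydrolyses to lactate. Methylglyoxal also acts at GABA-A receptors, and Glo1 has been studied in mice for its relation to anxiety-like behaviour. A duplication on chromosome 17 that spans Glo1 and parts of its neighbourhood is known to segregate among inbred strains and is carried by DBA/2J and not by C57BL/6J. In a recombinant inbred panel, genes close to each other on a chromosome tend to be inherited together from one progenitor, so the Glo1 class also marks the progenitor origin of its neighbourhood. An effect of Glo1 level and an effect of any linked allele cannot be told apart in this comparison.

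The Glo1 level chose the classes, and its values are given as a description. Strain means in the low class ran from 9.46 in BXD08 through a median of 9.59 to 9.67 in BXD14. In the high class they ran from 10.48 in BXD36 through a median of 10.59 to 10.95 in BXD18. The class means were 9.58 ± 0.07 (SD, n = 10) and 10.60 ± 0.10 (SD, n = 17), a difference of 1.02 on the log2 scale or 2.03-fold. No strain lay between 9.67 and 10.48, and this gap of 0.80 was the widest between neighbouring strains. The strains just inside and just outside the threshold were BXD36 and BXD14, and placing the threshold at the middle of the gap moved 0 strains.

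**Figure D1:**
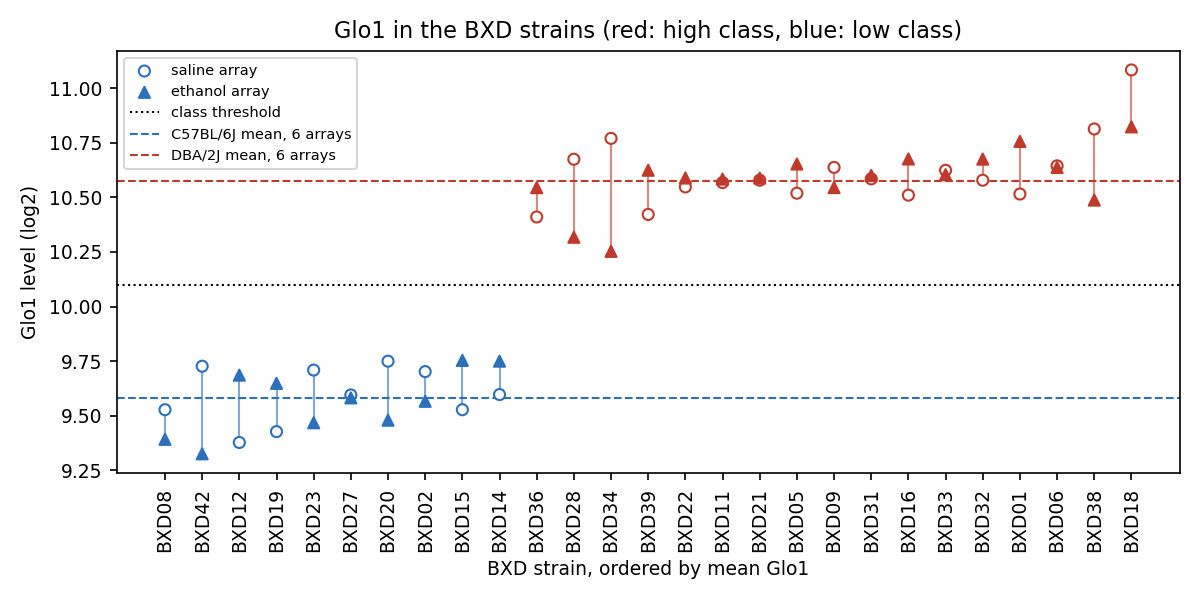
Glo1 level on the log2 scale (vertical axis) in each BXD strain (horizontal axis, ordered by strain mean), with the saline array as an open circle, the ethanol array as a triangle and a line joining both. Strains of the high class are red and of the low class blue; dashed lines mark the C57BL/6J mean of 9.58 and the DBA/2J mean of 10.58, and the dotted line marks the class threshold of 10.1.

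The 12 progenitor arrays entered only the choice of the brightest probe set, not the class of any strain. The C57BL/6J and DBA/2J means lay on either side of the gap between strain means, although single arrays of each reached into it. C57BL/6J arrays had a mean of 9.58 ± 0.18 (SD, n = 6) and ranged from 9.39 to 9.82. DBA/2J arrays had a mean of 10.58 ± 0.15 (SD, n = 6) and ranged from 10.32 to 10.79. The progenitor ranges did not overlap, and DBA/2J exceeded C57BL/6J by 0.99 (SE 0.09, limma adjusted p = 6.84e-07).

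The other 3 Glo1 probe sets, which did not choose the classes but measure the same transcript, separated the strains in the same direction. On the second brightest the class means were 9.91 and 8.88, a 2.04-fold difference. On the next they were 9.53 and 8.28, a 2.38-fold difference, and on the dimmest 8.57 and 7.83, a 1.67-fold difference. The size of the class difference thus depended on the probe set read.

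BXD18 was the highest strain on all 4 probe sets. On the probe set that set the classes its saline array read 11.08 and its ethanol array 10.82, and the highest array of any other BXD strain read 10.81. The other 16 high strains averaged 10.58 ± 0.05 (SD, n = 16), and BXD18 exceeded that mean by 0.37, or 1.30-fold. On the dimmest probe set the same excess was 0.77, or 1.71-fold. Without BXD18 the class difference was 1.00 on the chosen probe set, so this strain did not set its size.

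The ethanol response of Glo1 comes from the same arrays that chose the classes and is given as a description. Ethanol minus saline averaged -0.03 ± 0.21 (SD, n = 17) in the high class and -0.03 ± 0.24 (SD, n = 10) in the low class. Glo1 was higher after ethanol in 10 of 17 high strains and in 4 of 10 low strains.

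All 18 genes other than Glo1 that were called between the classes lay on chromosome 17, the chromosome of Glo1. The comparison covered 13195 genes with strain as the replicate, and a gene was called at a limma adjusted p below 0.05. The 18 genes were 0.136% of those tested, with 8 higher and 10 lower in the high class. Chromosome 17 had 629 tested genes, of which 2.86% were called. Of the 12500 genes listed elsewhere 0 were called, although 581 of them had an unadjusted p below 0.05. A further 66 genes had no chromosome in the annotation used. The median difference over all genes was 0.01, and 7213 of the 13195 differences were above 0. Differences larger than any called one occurred elsewhere without passing. The extremes were Gm13306 on chromosome 4 (-1.31, SE 0.45, limma adjusted p = 0.767) and Snhg14 on chromosome 7 (1.05, SE 0.76, limma adjusted p = 0.925).

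The count of 18 depended on single strains. It fell to 11 without BXD14 and to 11 without BXD19, and it rose to 29 without BXD12, all 3 of the low class. In each of the 27 fits that left out 1 strain, every called gene lay on chromosome 17. Called genes elsewhere appeared under 5 other settings. With the saline arrays alone, 8 of 10 calls were on chromosome 17, and the others were Slc39a1, a zinc transporter gene on chromosome 3 (0.22, SE 0.04, limma adjusted p = 0.018), and Slc15a4, a peptide and histidine transporter gene on chromosome 5 (0.23, SE 0.05, limma adjusted p = 0.047). Both were chosen after their values were seen. The share on chromosome 17 was 22 of 23 with array weights, 31 of 34 with single arrays and strain as a random block, 19 of 21 with a residual component in the fit, and 9 of 11 without the strains numbered above 32. Those strains were unevenly split, with 5 in the high class and 1 in the low class.

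The called genes spread widely around Glo1. Counted in tested genes along the chromosome, 6 lay before Glo1, the farthest at position -163, and 12 lay after it, the farthest at position 164. The chromosome held 226 tested genes before Glo1 and 403 after it. No gene beyond position 164 was called. The share of genes with an unadjusted p below 0.05 was 16.2% on chromosome 17 and 4.65% elsewhere. Over the other autosomes and the X chromosome it ran from 2.01% on chromosome 15 to 8.30% on chromosome 8. In steps of 50 genes before Glo1, that share was 18%, 12%, 44% and 26%. After Glo1 it was 14%, 26%, 20% and 22%, then 8% and 0%. The share was therefore not at its highest in the genes beside Glo1.

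**Figure D2:**
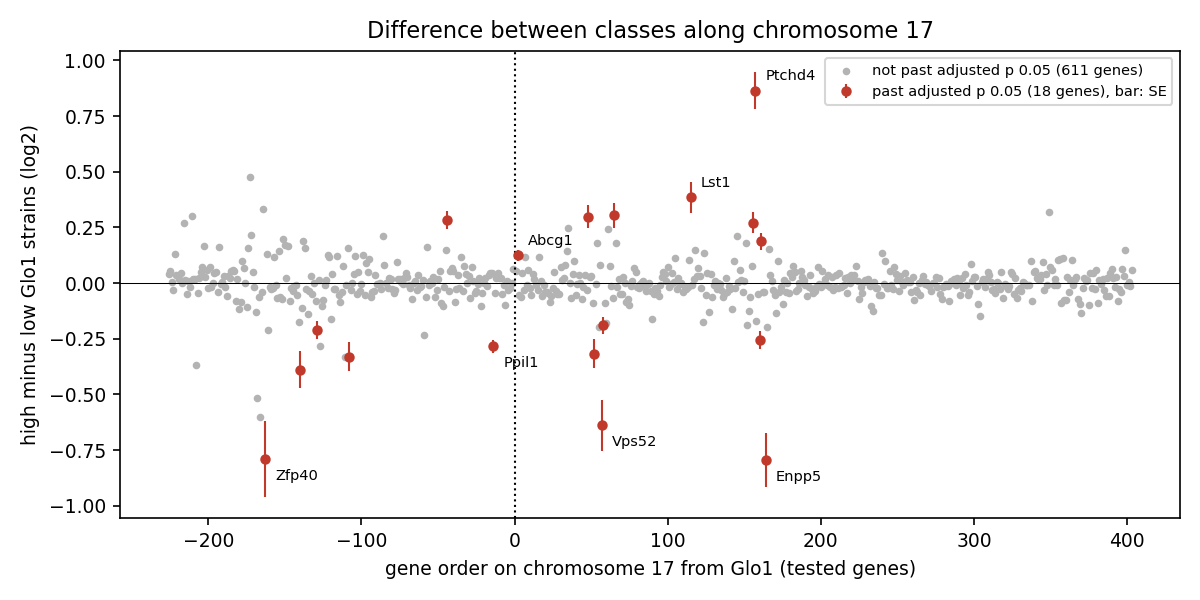
High minus low class difference on the log2 scale (vertical axis) for the 629 tested genes of chromosome 17 in gene order from Glo1 (horizontal axis, Glo1 at the dotted line). The 18 called genes are red with bars of 1 SE, lie from position -163 to 164, and run from Enpp5 at -0.79 to Ptchd4 at 0.86.

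Of the 20 tested genes closest to Glo1, 10 on each side, 1 was called (5%, beside 2.86% on chromosome 17 and 0.136% over all). Before adjustment 3 of the 20 lay below 0.05. In all, 9 were higher in the high class, and the differences ran from -0.10 to 0.12. Their median absolute difference was 0.04, and that of all genes was 0.03. The called one was Abcg1, a transporter that exports cholesterol from cells, at position 2. Abcg1 ranged from 8.62 to 8.80 in the low strains (median 8.67) and from 8.72 to 8.91 in the high strains (median 8.81). The classes overlapped, and the difference was 0.12 (SE 0.03, limma adjusted p = 0.028). Abcg1 was called under 29 of 43 alternatives.

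Btbd9, a BTB-domain gene directly before Glo1 that lies within the region of the known duplication, averaged 8.78 ± 0.07 (SD, n = 17) in the high class and 8.72 ± 0.09 (SD, n = 10) in the low class. Its difference of 0.06 had a 95% confidence interval from -0.01 to 0.13 and did not pass (limma adjusted p = 0.925). Zfand3, next beyond it, differed by -0.0015 (SE 0.05, limma adjusted p = 0.999), a value near 0 whose sign turned under several settings. Dnah8, an axonemal dynein gene, and Glp1r, the GLP-1 receptor gene, had probe set means over all 66 arrays from 4.03 to 4.82. Both were not among the genes tested because these means fell below the brightness limit of 5.10. Rnf8, a ubiquitin ligase of the DNA damage response, differed by -0.10 (limma adjusted p = 0.405), and Pde9a, a cyclic GMP phosphodiesterase, by 0.12 (limma adjusted p = 0.445).

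Ptchd4, which encodes a patched-domain membrane protein, had the largest difference among the called genes and lay 157 tested genes after Glo1. Its strain means ran from 6.50 through a median of 6.67 to 7.59 in the low class and from 7.43 through 7.64 to 7.89 in the high class. The classes overlapped only through BXD27, a low strain at 7.59, since the next low strain was at 7.05. The difference was 0.86 (SE 0.08, limma adjusted p = 4.44e-07), or 1.82-fold. It was 0.89 in saline arrays and 0.84 in ethanol arrays, each past the threshold. A second Ptchd4 probe set differed by 0.04 and did not pass.

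Ppil1, a peptidyl-prolyl isomerase of the spliceosome, lay 14 genes before Glo1 and was the only gene of all 13195 whose classes did not overlap. It ran from 6.45 through 6.61 to 6.70 in the high class and from 6.80 through 6.88 to 7.03 in the low class. The difference was -0.28 (SE 0.03, limma adjusted p = 1.0e-06). Ptchd4 and Ppil1 were called under all 43 alternative settings that could test them.

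The called genes farthest before Glo1 were Zfp40, a zinc finger gene, Tbc1d24, a gene of synaptic vesicle traffic, Caskin1, a synaptic scaffold gene, and Spsb3, an adaptor of a ubiquitin ligase. All 4 were lower in the high class on the probe set tested. Zfp40 ran from 5.69 to 7.11 in high strains (median 6.09) and from 5.96 to 7.43 in low strains (median 7.18). The classes overlapped over most of that range through single strains. These were the high strains BXD09, BXD11, BXD16 and BXD21, at 7.06 to 7.11, and the low strain BXD12 at 5.96. The other high strains reached up to 6.26, and the other low strains started at 6.95. The difference was -0.79 (SE 0.17, limma adjusted p = 0.047). Tbc1d24 differed by -0.39 (SE 0.08, limma adjusted p = 0.041), Caskin1 by -0.21 (SE 0.04, limma adjusted p = 0.012) and Spsb3 by -0.33 (SE 0.07, limma adjusted p = 0.027). Zfp40 was called under 13 of 43 alternatives and Tbc1d24 under 15 of 43, without a change of sign on the tested probe set. The direction of Tbc1d24 depended on the probe set, since its other bright ones had the opposite sign. Spsb3 was called under 29 of 43 alternatives.

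Closer to Glo1 on the same side, AI413582, an uncharacterised gene 44 positions away, ran from 8.84 to 9.21 in high strains (median 8.98) and from 8.58 to 8.86 in low strains (median 8.74). The ranges touched only at their ends, and the difference was 0.28 (SE 0.04, limma adjusted p = 6.04e-04).

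After Glo1, 6 called genes lay between positions 48 and 115, a stretch that includes genes of the major histocompatibility complex. Cd320, the receptor for transcobalamin-bound vitamin B12, was higher in the high class by 0.30 (SE 0.05, limma adjusted p = 0.0084). Brd2, a bromodomain reader of acetylated histones, was higher by 0.30 (SE 0.06, limma adjusted p = 0.010). Lst1, a leukocyte-specific transcript of the complex's class III region, was higher by 0.39 (SE 0.07, limma adjusted p = 0.0084), with high strains from 6.95 to 7.60 (median 7.35) and low strains from 6.74 to 7.38 (median 6.87). Rgl2, an activator of Ral GTPases, fell by 0.32 (SE 0.06, limma adjusted p = 0.028) and AA388235 by 0.19 (SE 0.04, limma adjusted p = 0.021). Rgl2 was called under 23 of 43 alternatives, and in 13 of the 27 fits that left out 1 strain. Vps52, a subunit of a complex that tethers vesicles at the Golgi, was lower by 1.56-fold (-0.64, SE 0.12, limma adjusted p = 0.0084). Vps52 ran from 7.19 to 8.40 in high strains (median 7.49) and from 7.41 to 8.57 in low strains (median 8.25). The overlap came from BXD39, the high strain at 8.40, and from the low strains BXD27 at 7.41 and BXD12 at 7.64. The next high strain was at 7.72 and the next low strain at 8.12.

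The last 5 lay between positions 156 and 164. Mmut, the vitamin B12-dependent methylmalonyl-CoA mutase, was higher in the high class by 0.27 (SE 0.05, limma adjusted p = 0.0060), and Pla2g7, a hydrolase of platelet-activating factor, by 0.19 (SE 0.04, limma adjusted p = 0.028). Pla2g7 was called under 30 of 43 alternatives. Adgrf5, an adhesion G protein-coupled receptor, fell by 0.25 on the probe set tested (SE 0.04, limma adjusted p = 0.0021). Its direction depended on the probe set. A dimmer one, with a mean of 4.49 and so below the brightness limit, was higher by 0.46 (SE 0.08, limma adjusted p = 0.011 over all probe sets). Enpp5, a member of the ectonucleotide pyrophosphatase family, ran from 8.56 to 10.06 in high strains (median 8.91) and from 8.83 to 9.91 in low strains (median 9.89). The low value of 8.83 was BXD27, with the next low strain at 9.65, and the high value of 10.06 was BXD21. The difference was -0.79 (SE 0.12, limma adjusted p = 0.0014).

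Probe sets of the same gene did not always agree in size or sign. Of the 18 called genes, 7 had another probe set above the brightness limit, 9 probe sets in all. Among these 9, 7 had the same sign as the one tested and 2 of those 7 also passed. Of the 2 with the opposite sign, 1 passed. The second Mmut probe set differed by 0.39 and the second Vps52 probe set by -2.0 (SE 0.32), a larger difference than the -0.64 of the tested one. Both other Tbc1d24 probe sets were of opposite sign, at 0.50 (SE 0.11, limma adjusted p = 0.0498 over all probe sets) and 0.12. Whether strain differences in the probed sequence contributed was not tested.

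The progenitor arrays, which entered the Glo1 rule only through the choice of its probe set, were compared for the same genes. DBA/2J and C57BL/6J differed in 2205 of 13195 genes (16.7%, limma adjusted p below 0.05), with 1165 higher and 1040 lower in DBA/2J. All 18 genes called between the classes had a progenitor difference of the same sign, and 14 of the 18 passed. Ptchd4 was higher in DBA/2J by 1.09 (SE 0.08), Lst1 by 0.65 (SE 0.07), Cd320 by 0.52 (SE 0.07) and Brd2 by 0.52 (SE 0.09). In the other direction, Zfp40 differed by -1.06 (SE 0.08), Enpp5 by -0.89 (SE 0.08) and Vps52 by -0.88 (SE 0.12). The 4 that did not pass in the progenitors were AI413582 (0.22), Caskin1 (-0.16), Abcg1 (0.11) and Pla2g7 (0.17).

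**Figure D3:**
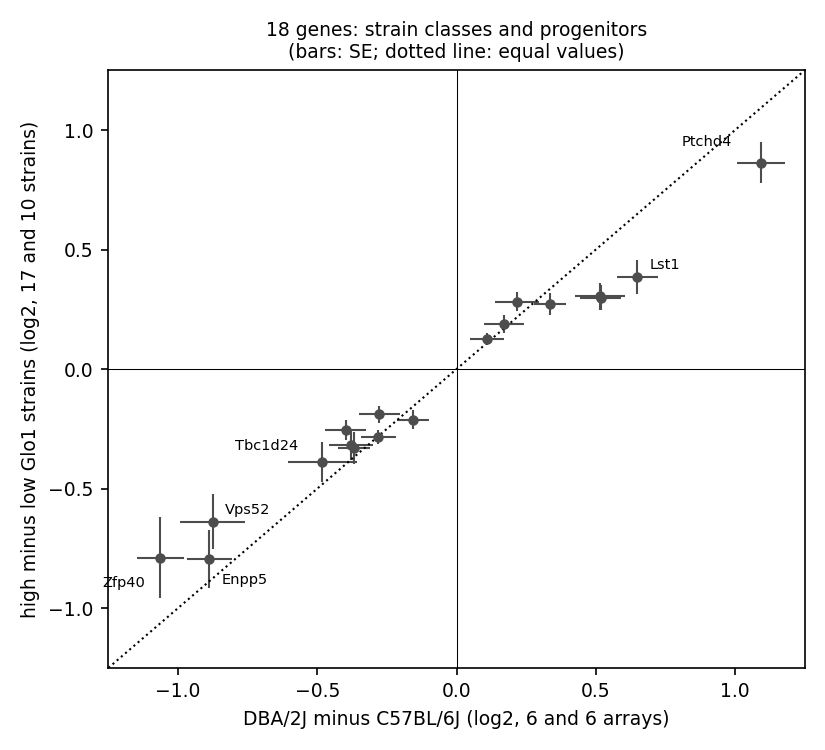
High minus low class difference (vertical axis, log2, 17 and 10 strains) against DBA/2J minus C57BL/6J (horizontal axis, log2, 6 and 6 arrays) for the 18 called genes, with bars of 1 SE and a dotted line of equal values. All 18 points lie in the quadrants of equal sign, from Zfp40 at -1.06 and -0.79 to Ptchd4 at 1.09 and 0.86.

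Single strains departed from the pattern of their class over long stretches. For each called gene a strain was counted as siding with its class when its mean was nearer to DBA/2J for a high strain, or nearer to C57BL/6J for a low strain. The 4 high strains BXD01, BXD18, BXD28 and BXD34 sided with their class at 18 of 18 genes, as did the 5 low strains BXD02, BXD08, BXD19, BXD20 and BXD42. The lowest counts were 8 of 18 in the low strains BXD12 and BXD27, followed by 11 in BXD11, 11 in BXD16 and 12 in BXD39, all 3 of the high class. BXD12 was DBA-like at the 4 genes farthest before Glo1 and at some after it, whereas BXD27 was C57-like there and DBA-like at most genes after Glo1. BXD09, BXD11 and BXD16 were C57-like at those 4 genes. By gene the count ran from 18 of 27 strains for AA388235 to 26 of 27 for Ptchd4. These genes were called on the same strains, so the counts describe them and test nothing.

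**Figure D4:**
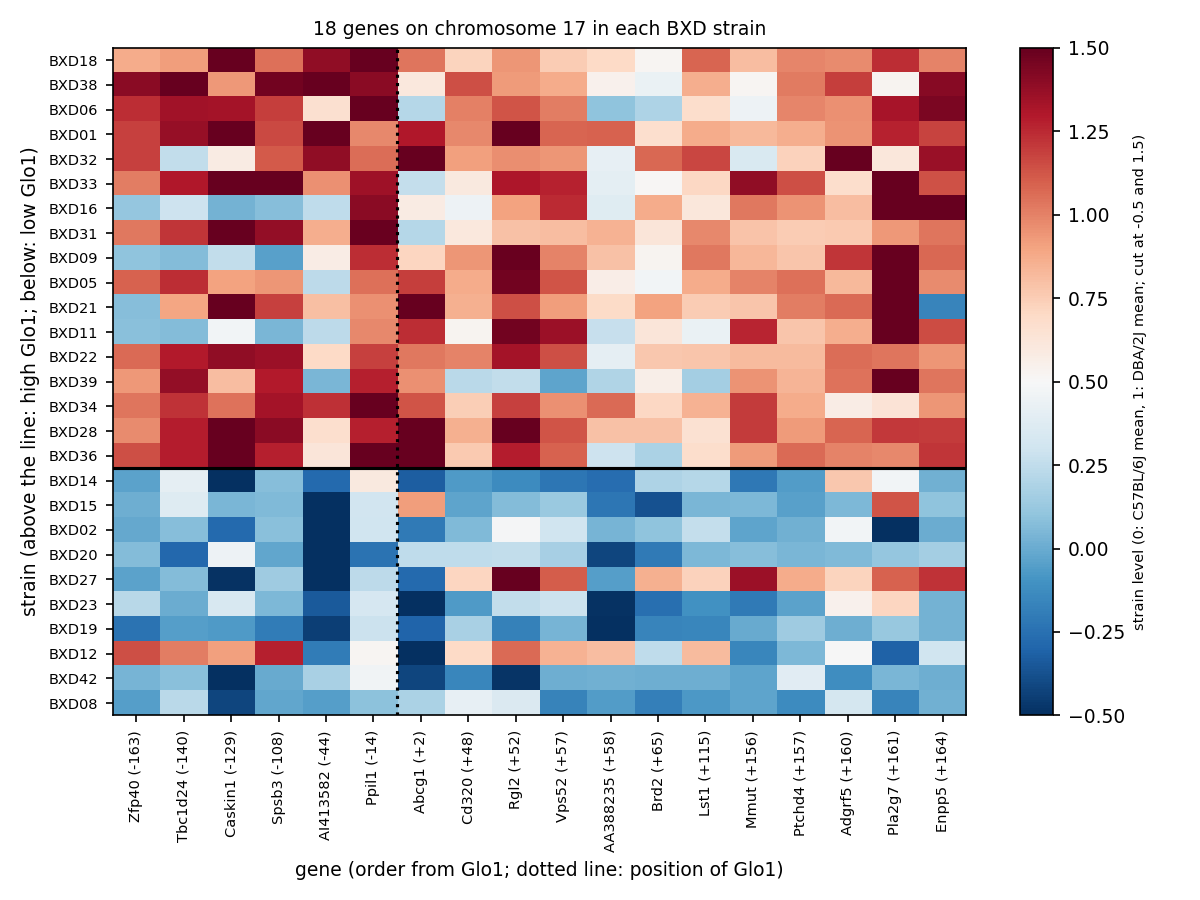
Strain level of each called gene (columns, in gene order from Glo1) in each BXD strain (rows, high class above the solid line and low class below), scaled so that 0 is the C57BL/6J mean and 1 the DBA/2J mean. The low strains BXD12 and BXD27 hold long red stretches, on the left and the right of the dotted Glo1 position, and sided with their class at 8 of 18 genes each.

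The same count was made for genes chosen from the progenitors alone, without use of the class difference. Genes were taken that passed between DBA/2J and C57BL/6J, differed by at least 1 on the log2 scale and had non-overlapping progenitor arrays. Of these, 5 lay on chromosome 17 and 95 elsewhere. The number of 27 strains siding with their Glo1 class ran from 10 to 26 (median 22) for the 5, and from 6 to 20 (median 13) for the 95. The count of 6, where most strains sided against their class, was that of Hspa13 on chromosome 16. Hspa13 was lower in the high class by 1.19 (SE 0.33, limma adjusted p = 0.313), although DBA/2J exceeded C57BL/6J by 2.12. The 5 were Prr18 (18 strains), Zfp758 (22), Zfp40 (22), Ptchd4 (26) and Slc8a1 (10), and Slc8a1, a sodium-calcium exchanger, lay farthest from Glo1 at position 370.

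The genes whose strain means followed Glo1 most closely came from the same stretch. Over the 27 strains, the Pearson correlation with Glo1 was -0.89 for Ppil1, 0.88 for Ptchd4, 0.82 for AI413582 and -0.79 for Adgrf5. It was -0.76 for Enpp5, 0.75 for Lst1 and -0.73 for Caskin1, and 0.72 for each of Abcg1, Cd320 and Mmut. Linked genes tend to be inherited together within a strain, so these correlations are not separate observations. The strains form 2 clusters of Glo1 level, so these values restate the class difference and carry no test.

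The gene lists are described by counts, read beside the 0.136% of all genes called, a share at which lists of this size would mostly hold none. Of 13 measured genes for glyoxalases and methylglyoxal clearance, 0 passed and 5 were higher in the high class, with a median difference of -0.01 beside 0.01 over all genes. Hagh, glyoxalase 2, also lies on chromosome 17, at position -112 from Glo1. It averaged 9.75 ± 0.11 (SD, n = 17) and 9.67 ± 0.09 (SD, n = 10), a difference of 0.08 with a 95% confidence interval from -0.01 to 0.16 (limma adjusted p = 0.925). Akr1b8, an aldo-keto reductase, differed by -0.07 and Glod4, a glyoxalase-domain gene, by 0.05.

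Of 21 measured genes of glutathione synthesis and use, 0 passed, 14 were higher in the high class, and the median was 0.03. The smallest p-values were those of Gsta4, a glutathione transferase that acts on lipid aldehydes (0.23, SE 0.08, limma adjusted p = 0.767), and Gsr, glutathione reductase (0.23, SE 0.08, limma adjusted p = 0.769). Both also differed between the progenitors, by 0.44 and 0.63, and lie on chromosomes 9 and 8. Of 14 measured glycolysis genes 0 passed and 4 were higher, with a median of -0.0032.

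GABA-A receptor subunits showed 0 of 9 measured members called and 4 higher, with a median of -0.01. Gabra5 differed by 0.10, with a 95% confidence interval from 0.0012 to 0.21 (limma adjusted p = 0.925). Gabra2 differed by -0.08, with an interval from -0.33 to 0.18, while DBA/2J exceeded C57BL/6J by 0.86 at this gene on chromosome 5.

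Immediate early genes, which neurons induce after activity, had 0 of 22 members called, but 20 of the 22 were higher in the high class. Their median difference was 0.10, beside 0.01 over all genes. Nptx2, a secreted pentraxin of excitatory synapses, had the largest difference at 0.54 (SE 0.19, limma adjusted p = 0.783), from 8.48 ± 0.59 (SD, n = 17) against 7.95 ± 0.32 (SD, n = 10). Bdnf, a neurotrophin gene, differed by 0.21 (SE 0.09, limma adjusted p = 0.925). Such genes tend to move together in a sample, so the 20 are not separate observations.

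Of 13 measured genes of MHC class I and antigen processing, 0 passed and 8 were higher, with a median of 0.02. H2-Ke6, a hydroxysteroid dehydrogenase encoded inside the complex, differed by 0.24 (SE 0.06, limma adjusted p = 0.154) and H2-M3, a nonclassical class I gene, by -0.12 (SE 0.04, limma adjusted p = 0.405). The glucocorticoid-responsive genes had 0 of 15 called, the anxiety and stress peptide genes 0 of 19, and the genes of ethanol and aldehyde metabolism 0 of 9. Their medians were -0.01, 0.01 and 0.01.

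Among the cell type markers, Slc17a7, a glutamate transporter of cortical excitatory neurons, averaged 10.42 in the high and 10.45 in the low class, and Camk2a averaged 11.87 in both. The excitatory markers with the smallest p were Cux2 and Neurod6, transcription factors of cortical neurons, which differed by 0.11 and 0.14 (limma adjusted p = 0.925 for both). Beside a share of 0.136% over all genes, the number of members called was 0 for excitatory neurons (11 measured), inhibitory neurons (12), astrocytes (12), oligodendrocytes (13), microglia (11), endothelium and pericytes (14), meninges (12) and striatum (9). The mean level of the striatal list ran from 7.55 to 7.83 in the high class and from 7.61 to 7.76 in the low class. That of the microglial list ran from 8.16 to 8.62 and from 8.19 to 8.47. Of its 11 markers 9 were higher in the high class, with a median difference of 0.04 beside 0.01 over all genes. The oligodendrocyte list spread more widely, from 8.03 to 8.71 and from 8.05 to 8.51. So did the meningeal list, from 7.50 to 8.16 and from 7.67 to 8.04, with 6 of 12 markers higher. In such tissue samples fewer cells of a type and less RNA per cell cannot be told apart. The spread of values within arrays was alike, with strain medians of 2.12 in both classes.

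No gene of 13195 passed the test of a class difference in ethanol response (0% called by limma), and the adjusted p-values started at 0.999. Unadjusted, 463 genes lay below 0.05. Each alternative tried also called 0. The 5 genes with the smallest p were Acvr1, an activin receptor gene, Grm4, a metabotropic glutamate receptor gene on chromosome 17, Baiap2l1, Il1rapl2 and Gga2, a sorting adaptor of the Golgi. Acvr1 responded by -0.17 in the high and 0.12 in the low class, a difference of -0.29 (SE 0.07).

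Within the high class 2 of 13195 genes (0.0152%) changed after ethanol, and within the low class 1 (0.00758%). Npas4, which encodes a neuronal transcription factor switched on by activity, rose in both classes. Its response was 0.82 ± 0.51 (SD, n = 17) in the high class, above 0 in 15 of 17 strains (limma adjusted p = 1.27e-04). In the low class it was 0.87 ± 0.48 (SD, n = 10), above 0 in 9 of 10 strains (limma adjusted p = 0.0066). Without BXD12, a low strain, the low class response no longer passed (limma adjusted p = 0.052), and the low class count was 0. The responses differed by -0.06, with a 95% confidence interval from -0.42 to 0.30. That difference was close to 0 and took the opposite sign, 0.02, with array weights, and 0.00496 without BXD12.

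Gga2 fell in the high class by 0.16 (SE 0.03, limma adjusted p = 0.0073) and was above 0 in 0 of 17 strains. In the low class its response averaged -0.0047 (SE 0.03) and was above 0 in 2 of 10 strains, the larger 0.24 in BXD23. The difference of -0.15 (SE 0.04) did not pass (limma adjusted p = 0.999), so a class difference in this response was not shown. Fos responded by 0.42 ± 0.60 (SD, n = 17) and 0.54 ± 0.50 (SD, n = 10) without passing in either class. Nptx2 responded by -0.39 and -0.02, Egr2 by 0.30 and 0.59, and Arc by 0.46 and 0.45, and none of these passed.

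**Figure D5:**
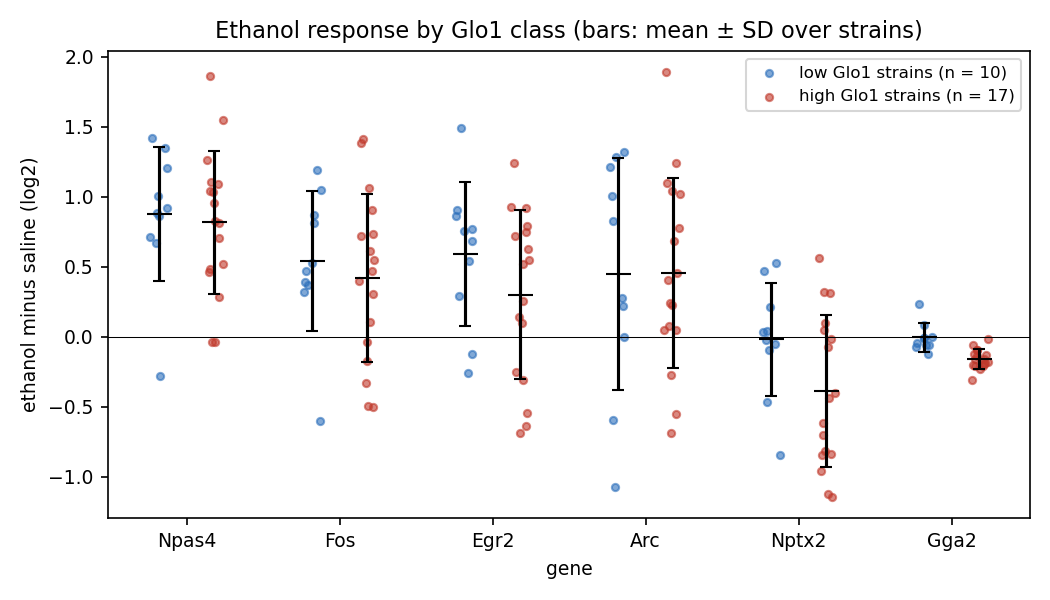
Ethanol minus saline on the log2 scale (vertical axis) for 6 genes (horizontal axis), 1 point per strain, low Glo1 strains in blue (n = 10) and high Glo1 strains in red (n = 17), with bars of mean ± SD. Npas4 lies mostly above 0 in both classes, at 0.87 and 0.82, and Gga2 lies below 0 in all 17 high strains.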

How the data were processed

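The data were 66 Affymetrix arrays of mouse prefrontal cortex in 1 deposited value table. Its log2 values were deposited by the authors, whose processing notes name affy and RMA without versions. The batch of each array was not used here. RMA equalises distributions across arrays, so levels are relative. An array has no read depth, and the number of strains limits precision.

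Of 45037 probe sets, 34945 had 1 gene symbol, 932 several and 9160 none, by the platform annotation, and 34741 symbols were updated through RefSeq (GRCm38.p6), which also gave chromosome and gene order. Probe sets with a mean below the 40th percentile (5.10) were left out, which removed 18015, and the brightest per gene was kept. The 4 Glo1 probe sets were left out of the tests, leaving 13195 genes. Strain means (17 against 10, 25 residual degrees of freedom), strain responses (ethanol minus saline) and progenitors (6 against 6, averaged over the treatment groups) were fitted with limma 3.58.1 in R 4.3.3, with Benjamini-Hochberg adjustment over all genes and a threshold of 0.05. Fits were tested on simulated data. Saline and ethanol arrays were paired by strain. Over the 200 genes with the smallest progenitor p-values, each of the 27 strains matched its own partner best (lowest correlation 0.900). These genes were picked for strain differences, so the value does not describe agreement over all genes.

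Genes were named by rule: called genes, the 10 nearest to Glo1 on each side in range and by example, known duplication members and Hagh, list members with the smallest p, called or lowest-p response genes, and the 10 most correlated with Glo1. The strains, lists and comparisons were chosen with earlier results of these data known. The p-values measure spread between strains or arrays of pooled animals. No sequences were printed because the results rest on levels and gene order.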

Additional observations from a re-analysis of the deposited data

Results flagged for a closer look

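For Glo1, the called genes, Btbd9 and Hagh, 63 combinations of a gene and a group of 4 to 10 samples were examined. The search was for a sample far from the others, and 10 were found. The groups were the low strains and the arrays of each progenitor. The 17 high strains, a group above that size, were not examined. Chance flags about 1 in 20 such groups. The genes are linked and read in the same samples, so the combinations are not independent and the 2 shares are not directly comparable. In the low class, BXD27 stood apart at Mmut (9.25, next strain 8.82), Enpp5 (8.83, next 9.65), Brd2 (9.58, next 9.27) and Ptchd4 (7.59, next 7.05), all after Glo1 on the chromosome. BXD12 stood apart at Spsb3 (8.38, next 8.79) and Zfp40 (5.96, next 6.95), before Glo1, and at AA388235 (6.08, next 6.30), after it. Each of these 7 values lay on the side of DBA/2J. Among progenitor arrays, a C57BL/6J saline array (replicate 2) stood apart at Mmut with 8.96 (next 8.80), a DBA/2J ethanol array (replicate 2) at Cd320 with 7.60 (next 7.84), and a DBA/2J ethanol array (replicate 1) at AA388235 with 6.33 (next 6.04).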

How the results depend on the processing

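The count of genes called between the Glo1 classes, 18, became 43 over all probe sets (34 of them named, all 34 on chromosome 17), 10 in saline arrays, 4 in ethanol arrays, 4 with classes set on saline arrays and genes read in ethanol arrays, 34 with single arrays and strain as a random replicate block (within-strain correlation 0.189), 4 without the 2 strains nearest the threshold on each side, 11 without strains numbered above 32 and 5 by rank-sum test. The calls on chromosome 17 numbered 34, 8, 4, 4, 31, 4, 9 and 5 in the same order. Leaving out 1 strain gave 11 to 29, all on chromosome 17. Other filters, centring, quantile normalization and weights kept it within 17 to 23. The gap threshold moved 0 strains, so its fit repeated the main one. Classes set on saline arrays were the same as the main classes, so that fit repeated the one in ethanol arrays. Both repeats entered the numbers of alternatives given for single genes. Counts of response differences were 0 throughout. Within classes, leaving out 1 strain, a setting added after seeing the data, gave 2 to 2 ethanol calls in the high class and 0 (without BXD12) to 1 in the low class. The progenitor count of 2205 became 3839 over all probe sets, 1363 in saline arrays, 953 in ethanol arrays and 1743 to 2434 without single arrays. Progenitor replicate numbers did not pair the arrays, and a replicate block gave 1913. No gene of chromosome 17 differed by 2 or more between progenitors, so that alternative gave no value there. Of 1773 single-gene values under alternatives, 1583 kept their sign and side, 169 lost the call, 3 gained one and 18 reversed. Zfand3, near 0 as reported, was 0.0075 with median centring, 0.0109 in saline arrays, 0.0215 without strains above 32, and -0.0189 to 0.0189 without single strains. The Npas4 response difference was 0.0225 with array weights and 0.00496 without BXD12, the upper end of a range from -0.18 without single strains. None of the 18 called genes reversed on its tested probe set. With 17 and 10 strains, small differences in single genes cannot be told from 0.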
